A study of Ovis aries with 9 samples.

Results

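Radial spoke genes, together with ROPN1L and CAPSL, were followed through RNA-Seq counts of 9 sheep ovaries. The set held 9 of the 27174 rows of the count table, namely RSPH1, RSPH3, RSPH4A, RSPH9, NME5, LRRC23, ROPN1L, LOC101116109 and CAPSL. LOC101116109 is named ROPN1 in the sheep reference table. The genes had been chosen by their counts, which were to be higher in Han ++ than in Dorset ovaries. The difference between those groups is therefore given below as a description, and the calls printed for it support nothing.

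Whole ovaries bearing ovulation points came from adult ewes, with 3 animals and 1 library per animal in each group. Ewes D4, D5 and D6 were Dorset sheep, a breed of low fecundity. The others were of the prolific Small Tail Han breed, of which W1, W2 and W4 had 2 copies of the FecB allele of the receptor gene BMPR1B (Han BB), and W6, W7 and W8 had 2 wild-type copies (Han ++). The Dorset ewes were labelled wild type. Every direction below rests on the column names of the count table. FecB is a point mutation that counts do not show, so the counts held no check of the names, and whether the columns carry the right ones could not be settled. All ewes had been synchronized with a progestagen sponge and gonadotropin, and the ovaries were taken after a spontaneous estrus that followed.

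Motile cilia bend because dynein arms slide the outer doublets of the axoneme against each other. Radial spokes are T-shaped complexes that reach from the outer doublets to the central pair and carry signals that order this sliding. In the female tract such cilia line the oviduct, including the fimbria that lies against the ovary, and the same spokes are found in sperm tails.

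The genes belong to different places in the spoke. RSPH1, RSPH4A and RSPH9 encode proteins of the spoke head. RSPH3 encodes a stalk protein that anchors protein kinase A. ROPN1L and ROPN1 share the docking domain by which the regulatory subunit of protein kinase A binds its anchors. NME5 encodes a spoke protein of the nucleoside diphosphate kinase family, LRRC23 a leucine-rich repeat protein of the spoke head, and CAPSL a calcyphosine-like protein with calcium-binding EF hands. CAPSL is a ciliary gene and not a known spoke subunit.

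LOC101116109 was also a target of the study's qPCR. Its primer pair is shown because it marks the transcript assayed under a name that carries no function. The qPCR values were not used here, and that assay must not be taken as support for any direction given below. Both designed oligos are written 5′ to 3′, with no capitals.
Forward primer: gacctgtttaacagtgtgatga
Reverse primer: ttggcaatggtaactccga

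Totals ran from 10803913 counts in W8 to 20992535 in W7, and the biological coefficient of variation was 0.472. All 9 genes passed the filter on low counts, which kept 16871 rows, and the lowest count of any of them was 16 reads, for NME5 in W2. Levels are CPM, the count of a gene relative to the TMM-scaled library size, without correction for gene length, so levels were not compared between genes. Granulosa markers summed to between 72.4 and 286 CPM, and oocyte markers to between 6.08 and 21.2 CPM. In whole ovaries, fewer cells of a type and less RNA per cell cannot be told apart.

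The libraries W4 (Han BB) and D6 (Dorset) differed from the others of their groups in many genes. Such shares were taken for W4, D6 and W8 only, so they do not rank the 9 libraries. In W4, 14.1% of genes were at least 2-fold above the mean of W1 and W2 and 23.3% were at least 2-fold below it. For D6 against D4 and D5 the shares were 10.1% and 22.7%. The comparisons, the order of the groups, the correlations and the gene lists are therefore also given without W4 and D6. Leaving both out left 2 animals in each of those groups. In the mean standardized log2 level of the 9 genes, D6 was at -0.03, against -1.10 in D4 and -1.34 in D5. W4 was at 0.84, against 0.06 in W1 and -0.34 in W2. Leaving out these high libraries therefore lowers Dorset and Han BB against Han ++ in this set by construction.

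ROPN1L had the clearest separation of the 3 groups. Its level was 3.31, 2.66 and 4.08 CPM in D4, D5 and D6. In the Han BB libraries W1, W2 and W4 it was 10.9, 9.81 and 8.50 CPM. Han ++ ovaries W6, W7 and W8 held 25.7, 19.5 and 20.7 CPM. No value of one group overlapped another, and W4 and D6 lay close to their own groups. The mean was 3.35 ± 0.710 CPM for Dorset, 9.74 ± 1.21 CPM for Han BB and 21.98 ± 3.29 CPM for Han ++ (SD, n = 3 each).

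LOC101116109, the ROPN1 gene, followed the same order. Dorset ovaries held 3.60, 2.61 and 6.20 CPM. The Han BB values were 10.5, 7.43 and 12.8 CPM. In Han ++ the level was 22.4, 18.9 and 16.0 CPM. The groups did not overlap, although D6 at 6.20 CPM came near W2 at 7.43 CPM. ROPN1L took between 39.7% (D6) and 56.9% (W2) of the reads of the ROPN1L and LOC101116109 rows together. Only uniquely mapped reads had been counted. The sequences of these genes were not compared, so whether reads of one were counted for the other was not tested.

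LRRC23 shared this order. In D4, D5 and D6 it had 6.03, 6.40 and 6.42 CPM, a spread of 0.218 CPM (SD). W1, W2 and W4 had 11.2, 14.9 and 22.6 CPM. W6, W7 and W8 had 46.4, 32.4 and 25.0 CPM. The highest Han BB library, W4, lay just below the lowest Han ++ library, W8.

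RSPH9, of the spoke head, also went from Dorset through Han BB to Han ++ without overlap, but with narrow gaps. The Dorset values were 11.2, 3.74 and 8.94 CPM, those of Han BB 16.2, 11.4 and 14.2 CPM, and those of Han ++ 26.1, 17.6 and 17.7 CPM. D4 at 11.2 CPM and W2 at 11.4 CPM were nearly equal, beside means of 7.96 ± 3.82 CPM in Dorset and 13.95 ± 2.40 CPM in Han BB (SD, n = 3 each).

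RSPH4A and RSPH1, also of the head, overlapped between all groups. RSPH4A was at 4.48, 6.45 and 29.9 CPM in D4, D5 and D6. It reached 16.7, 18.1 and 82.3 CPM in W1, W2 and W4. In W6, W7 and W8 it was at 55.0, 42.7 and 14.3 CPM. The highest value of all was in W4, and the lowest Han ++ value, in W8, lay under every Han BB value and under D6.

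RSPH1 had its extremes in the same libraries. Dorset had 5.74, 9.02 and 33.5 CPM, Han BB had 9.11, 8.13 and 67.4 CPM, and Han ++ had 39.4, 33.0 and 6.54 CPM. W4 and D6 were the high libraries of their groups, and W8 was the low one of Han ++.

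CAPSL had 5.16, 2.75 and 22.2 CPM in the Dorset ovaries. Its Han BB levels were 16.2, 13.2 and 53.7 CPM, and its Han ++ levels were 42.4, 30.0 and 22.01 CPM. Without W4 and D6 the 3 groups did not overlap. With them, D6 matched W8 and W4 exceeded every Han ++ library.

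NME5, the least counted gene, had Dorset values of 1.65, 0.811 and 2.85 CPM. It was at 3.04, 1.12 and 4.75 CPM in the Han BB ovaries and at 5.96, 3.26 and 4.88 CPM in those of Han ++. Han ++ lay above Dorset in every library, and Han BB overlapped both groups.

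RSPH3 went against the direction by which the set was picked. Dorset ovaries had 8.08, 11.1 and 16.5 CPM. Han BB ovaries had 13.9, 10.7 and 16.5 CPM, and Han ++ ovaries had 12.0, 11.5 and 8.75 CPM. The Han ++ mean of 10.7 ± 1.74 CPM was below the Dorset mean of 11.9 ± 4.25 CPM (SD, n = 3 each). The groups overlapped, and this stalk gene had the smallest change of the set in both comparisons with Dorset.

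**Figure D1:**
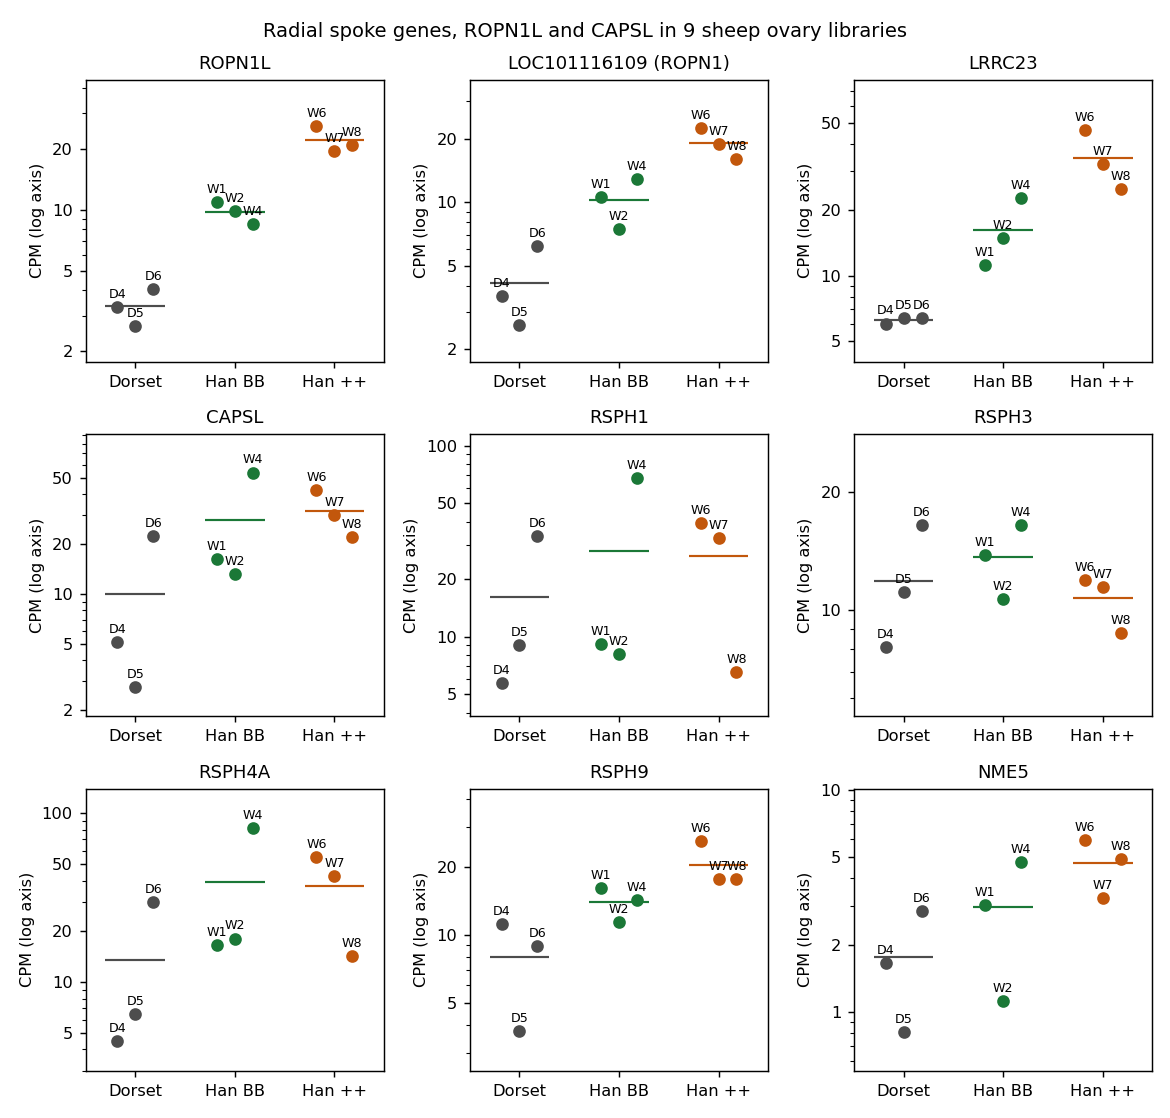
Level of each of the 9 genes in CPM (log axis) in the 9 ovary libraries, by group, with 1 labelled point per animal and a line at the group mean. ROPN1L, LOC101116109, LRRC23 and RSPH9 are ordered Dorset, Han BB, Han ++ with no overlap, while W4 and D6 are the high points for RSPH1, RSPH4A and CAPSL.

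A step order of this kind, with every Dorset library below every Han BB library and every Han BB library below every Han ++ library, was met by 4 of the 9 genes. Over all tested genes it was met by 34, or 0.202%. Because the set was picked for Han ++ above Dorset, the nearer background is the genes in which Han ++ lay above Dorset without overlap. They were 923 genes (5.47%), of which 3.68% kept the order. Their gaps between Dorset and Han ++ were of any size, and a wider gap leaves more room for Han BB. The set was picked by that difference and no background matched for the gap was computed, so these shares support nothing. Of the picked genes, 5 had Han ++ above Dorset without overlap, and the fifth, NME5, did not keep the order. Without W4 and D6 the order was met by 5 genes, CAPSL being added, against 1.35% of all tested genes. The share among genes with Han ++ above Dorset was not computed for that case, so the nearer background is missing. Fewer libraries make the order easier to meet, and W4 and D6 were the libraries that broke it for CAPSL.

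The Han ++ vs. Dorset comparison is the one by which the genes were picked. ROPN1L had the largest log2 fold change at 2.71 ± 0.31 (SE), followed by LRRC23 at 2.46 ± 0.35 and LOC101116109 at 2.20 ± 0.39. CAPSL was at 1.65 ± 0.74, RSPH4A at 1.45 ± 0.82, NME5 at 1.41 ± 0.63 and RSPH9 at 1.37 ± 0.40. RSPH1 was at 0.71 ± 0.92 and RSPH3 at -0.15 ± 0.33. The median of the 9 genes was 1.45, beside -0.06 over all tested genes. Values were positive for 8 of the 9 genes and for 44.1% of all genes tested. Of the set, 8 were at least 1.5-fold higher in Han ++, as were 11.3% of all tested genes. When both an adjusted p below 0.05 and a fold over 1.5 were required, ROPN1L was the 1 gene called (0.00593% of genes tested), and its call was lost when any library other than W4 was left out. The call draws on the values that chose the gene, so nothing is read from it.

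Without W4 and D6 the same comparison gave a median of 2.48 for the set. RSPH4A then stood at 2.76, CAPSL at 3.03 and RSPH1 at 1.83, while ROPN1L was at 2.89 and RSPH3 at 0.16. RSPH1, RSPH4A and CAPSL thus differed more between the fits with and without these libraries than ROPN1L did.

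The Han BB vs. Dorset comparison asked how ovaries of Han ewes with the FecB allele stood to the less prolific breed. The Han BB libraries had no part in choosing the genes, but the Dorset libraries did, so these p-values are not free of the choice. None of the 9 genes passed the test, nor did any other gene (0% of 16871 tested, edgeR's quasi-likelihood test), with 842 genes (4.99%) at an unadjusted p under 0.05. DESeq2 called 38 genes in this comparison, with ROPN1L among them.

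ROPN1L was higher in Han BB by 1.54 ± 0.30 on the log2 scale (SE, adjusted p = 0.658, edgeR). RSPH4A stood at 1.51 ± 0.82, CAPSL at 1.46 ± 0.74, LRRC23 at 1.37 ± 0.34 and LOC101116109 at 1.31 ± 0.38. Of the others, RSPH9 was at 0.82 ± 0.40, RSPH1 at 0.80 ± 0.92, NME5 at 0.75 ± 0.62 and RSPH3 at 0.20 ± 0.33. All 9 values were positive, as were 49.4% of those of all genes tested. The median was 1.31 against -0.01 over all genes. At an unadjusted p under 0.05, ROPN1L, LRRC23 and LOC101116109 were higher in Han BB, as were 2.1% of all genes. In 8 of the 9 genes the level was at least 1.5-fold higher, as in 10.1% of all genes tested.

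The 4 genes in which Han BB lay above Dorset without overlap were ROPN1L, LOC101116109, LRRC23 and RSPH9, set against 4.27% of all tested genes. Without W4 and D6 the difference was 1.80 for ROPN1L (adjusted p = 0.231, edgeR), 1.92 for CAPSL (adjusted p = 0.388) and 1.64 for RSPH4A (adjusted p = 0.603). RSPH1 was at 0.20 in that fit. Leaving out W4 alone brought the median of the set to 0.52.

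Within the Han breed, the Han BB vs. Han ++ comparison sets the FecB genotypes against each other. Here the Han ++ libraries had been used in the choice. None of the 9 genes passed the test, and none did among all genes (0% of 16871, edgeR), with 332 genes (1.97%) at an unadjusted p under 0.05. DESeq2 and limma voom called 2 genes each, neither of them in the set.

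ROPN1L was at -1.17 ± 0.29, LRRC23 at -1.09 ± 0.33 and LOC101116109 at -0.89 ± 0.37, each lower in Han BB (log2 fold change ± SE, adjusted p = 0.999 for all, edgeR). NME5 was at -0.66 ± 0.61 and RSPH9 at -0.55 ± 0.39. For CAPSL (-0.19 ± 0.72), RSPH1 (0.10 ± 0.92) and RSPH4A (0.06 ± 0.80) the standard errors were several times the difference. RSPH3 was at 0.35 ± 0.33. Han BB lay below Han ++ without overlap for ROPN1L, LOC101116109, LRRC23 and RSPH9, as for 4.59% of all genes tested.

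Without W4 and D6 the sign turned for RSPH1 and RSPH4A. RSPH1 went to -1.63 and RSPH4A to -1.12, and CAPSL moved to -1.11. ROPN1L stayed at -1.09 and LRRC23 at -1.42. The adjusted p was 0.993 for each of these genes. The median went from -0.55 to -1.11. A p that misses the threshold does not show that the genotypes were alike.

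**Figure D2:**
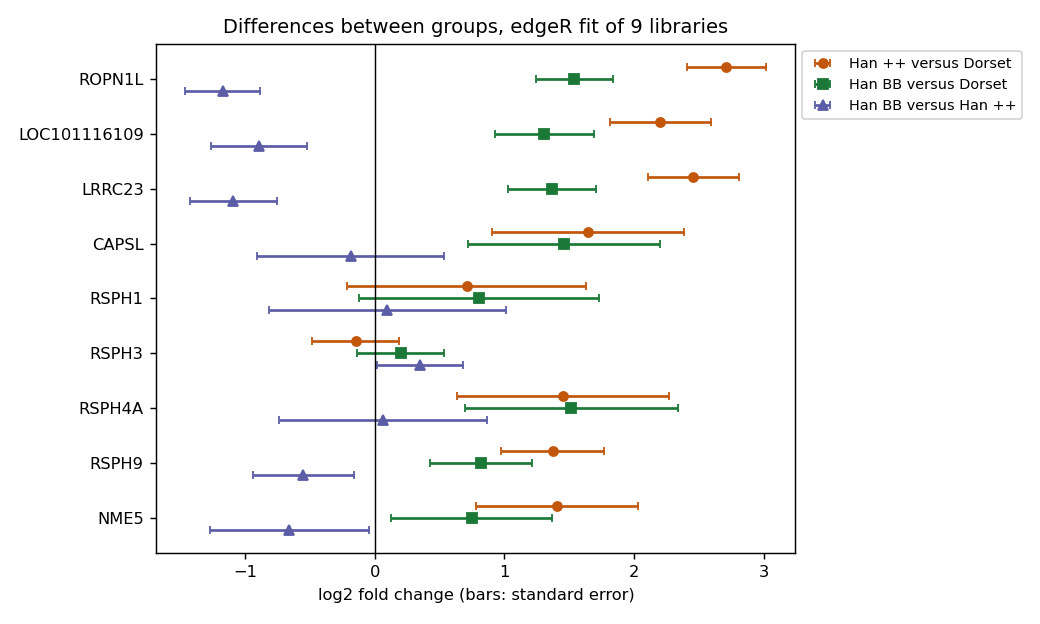
Log2 fold change of each of the 9 genes in the 3 comparisons, with bars for the standard error derived from the edgeR fit of 9 libraries. ROPN1L has the shortest bars, up to 0.31, and RSPH1 the longest at 0.92. The Han ++ vs. Dorset values describe the picking of the genes and are not a test.

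Animals of the same group differed most in RSPH1, RSPH4A and CAPSL. W4 held 7.82 times the mean of W1 and W2 for RSPH1, 4.72 times for RSPH4A and 3.65 times for CAPSL. For NME5 the ratio was 2.28, for LRRC23 1.73, for LOC101116109 1.43 and for RSPH3 1.34. RSPH9 at 1.03 and ROPN1L at 0.820 were near the median ratio of all genes, 0.917.

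D6 differed from D4 and D5 in much the same genes. Its ratio to their mean was 5.61 for CAPSL, 5.47 for RSPH4A and 4.54 for RSPH1. NME5 stood at 2.31 and LOC101116109 at 1.99. RSPH3 at 1.72, ROPN1L at 1.37, RSPH9 at 1.197 and LRRC23 at 1.03 had smaller ratios, beside a median of 0.906 over all genes. The cause of the difference between libraries was not tested.

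W8 was on the low side of Han ++. RSPH1 was at 0.181 and RSPH4A at 0.292 of the mean of W6 and W7, where 5.17% of all genes were at least 2-fold lower and 10.7% at least 2-fold higher. CAPSL was at 0.608 and LRRC23 at 0.633 of that mean. The ratios of ROPN1L (0.917) and NME5 (1.06) stayed near the median of 1.01.

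The reads of ROPN1L relative to those of RSPH4A show this within each library, without scaling. ROPN1L made up 42.5% of the reads of the pair in D4 (95% Clopper-Pearson interval 31.5 to 54.1) and 29.2% in D5 (23.0 to 36.0). In D6 it was 12.0% (9.53 to 14.9). The shares were 39.5% in W1 and 35.1% in W2, and 9.36% in W4 (7.86 to 11.03). W6 and W7 were alike at 31.9% and 31.4%, and W8 was highest at 59.2% (54.1 to 64.2). The intervals cover counting error only. D6 and W4 were the lowest libraries, in different groups, and their intervals did not overlap those of the other 7 libraries.

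**Figure D3:**
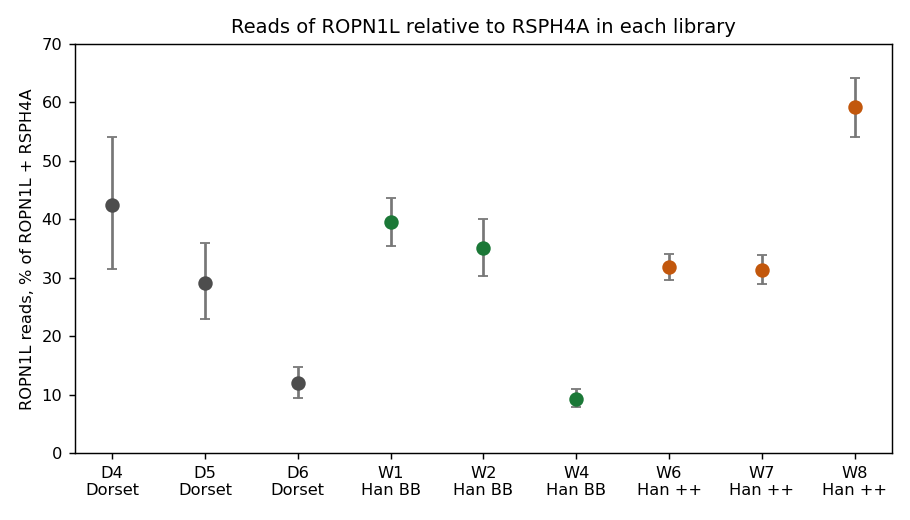
ROPN1L reads as a percentage of ROPN1L plus RSPH4A reads in each of the 9 libraries, with 95% Clopper-Pearson intervals as bars and colours for the groups. D6 at 12.0% and W4 at 9.36% lie below the other libraries, which run from 29.2% to 59.2%.

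Over the 9 libraries the log2 levels of ROPN1L and LOC101116109 had a Pearson correlation of 0.955, and those of ROPN1L and LRRC23 one of 0.933. A second close pair was CAPSL with RSPH4A at 0.928, and another was RSPH1 with RSPH4A at 0.8997. Between ROPN1L and RSPH1 the correlation was 0.266, and between ROPN1L and RSPH3 it was -0.04. These are descriptions over 9 libraries that share the groups, the scaling and the W4 and D6 libraries. Over the 7 libraries without W4 and D6 the values were 0.991, 0.952, 0.908, 0.861, 0.602 and 0.29 in the same order of pairs.

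The genes most like the set were sought by the correlation of their log2 CPM with the mean standardized pattern of the 9 genes over the 9 libraries. They were DYDC2 (0.994), LOC101103164 (0.993), WDR63 (0.985), SPAG6 (0.981) and CXHXorf30 (0.975). DYDC2 carries a DPY30 domain like that of spoke proteins, LOC101103164 is the gene of tektin 1 inside doublet microtubules, WDR63 is an inner dynein arm chain, and SPAG6 is a central pair protein. Of 16862 other genes, 0.546% reached a correlation of 0.9. With Spearman's correlation, 2 of the 5 genes were again among the first 5, and without W4 and D6, 3 were.

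The levels of DYDC2 and LOC101103164 are given as a description, because these genes were chosen by their match to the set. DYDC2 had Dorset values of 1.65, 0.992 and 5.58 CPM, Han BB values of 6.79, 3.36 and 15.1 CPM, and Han ++ values of 19.4, 11.4 and 5.62 CPM. LOC101103164 was at 11.2, 9.65 and 28.7 CPM, then 37.6, 23.4 and 58.3 CPM, then 94.8, 59.6 and 38.6 CPM, in the same order of libraries. In both genes D6 and W4 were the high libraries of their groups and W8 was the low one.

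Other genes of the spoke and its surroundings were taken from lists. In edgeR's fit of all 9 libraries none of them was called in any of the 3 comparisons, as with limma voom. DESeq2 and the fit without W4 and D6 called the few named below. Among radial spoke genes outside the set, 13 of 14 could be tested, of which 12 were higher in Han BB and 13 in Han ++ than in Dorset. The medians of their log2 fold changes were 0.85 and 0.91, and without W4 and D6 they were 0.24 and 1.17. DYDC2 had 1.60 ± 0.73 in Han BB and 2.14 ± 0.74 in Han ++ (SE), and DNAJB13, a chaperone-like spoke protein, had 1.44 ± 0.54 and 2.09 ± 0.54. CFAP206, at the base of a spoke, had 1.04 ± 0.54 and 1.35 ± 0.55, PPIL6 had 1.42 ± 0.81 and 0.75 ± 0.80, and DYDC1 had 0.99 ± 1.18 and 1.30 ± 1.18. Between the Han groups the list had a median of -0.31 (Han BB over Han ++), and of -0.80 without W4 and D6.

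The nexin-dynein regulatory complex links neighbouring doublets beside the spokes. Of its 11 genes, 10 were higher in Han BB and 10 in Han ++ than in Dorset, with medians of 0.69 and 0.86. Without W4 and D6, 7 were higher in Han BB and the medians were 0.25 and 1.28. Han BB over Han ++ gave a median of -0.23, and of -0.84 without W4 and D6. TCTE1 had 0.06 ± 0.56 in Han BB and 1.67 ± 0.56 in Han ++. IQCG had 1.10 ± 0.58 and 0.86 ± 0.58, and DRC3 had 1.02 ± 0.53 and 1.25 ± 0.53. DRC3 was called in Han ++ without W4 and D6, at 2.22 (adjusted p = 0.0423, edgeR).

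Calcium-binding relatives of CAPSL and other ciliary EF-hand genes gave 6 of 8 higher in Han BB and 7 of 8 higher in Han ++, with medians of 0.89 and 0.96 (0.70 and 1.61 without W4 and D6). CAPS, which encodes calcyphosine, had Dorset values of 7.10, 5.45 and 11.9 CPM, Han BB values of 17.2, 13.5 and 33.4 CPM, and Han ++ values of 42.4, 22.3 and 31.0 CPM. Its Han BB and Han ++ libraries all exceeded the Dorset ones, by 1.39 ± 0.43 and 1.97 ± 0.44 on the log2 scale. For Han ++ the difference was called by DESeq2 (adjusted p = 0.0137) and without W4 and D6 (2.36, adjusted p = 0.0426, edgeR). Between the Han groups the list median was -0.15 (Han BB over Han ++), and -0.97 without W4 and D6.

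Partners and relatives of the ropporins were centred near 0. Their median of Han BB over Han ++ was 0.14, and -0.12 without W4 and D6. Of 12 tested genes, 4 were higher in Han BB and 6 in Han ++ than in Dorset, and the medians were -0.06 and -0.01 (-0.09 for both without W4 and D6). SPA17, with the same docking domain, had 1.30 ± 0.72 and 1.03 ± 0.72 in Han BB and Han ++, and the anchoring protein AKAP14 had 0.99 ± 0.51 and 1.28 ± 0.51. RHPN2, a rhophilin, had 0.65 ± 0.40 and 1.16 ± 0.40. PRKAR2B, a regulatory subunit of protein kinase A, had -0.56 ± 0.53 and -0.96 ± 0.53. Of genes of the sperm tail's fibrous sheath, AKAP4 had -0.04 ± 0.32 and -0.40 ± 0.32 and CABYR -0.01 ± 0.41 and -0.34 ± 0.41.

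Of the NME family outside the set, 6 genes were tested, with medians of 0.32 in Han BB and 0.13 in Han ++ (0.44 and 0.07 without W4 and D6). NME9, a relative with a thioredoxin domain, had 1.01 ± 0.67 and 1.48 ± 0.68, and NME7 had 0.56 ± 0.44 and 0.12 ± 0.44. Han BB over Han ++ gave this list a median of 0.09, and of 0.28 without W4 and D6. NME1 was not analysed here.

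Markers of multiciliated cells, oviduct secretory cells and ovarian surface epithelium were mostly higher in both Han groups than in Dorset. Multiciliated cell markers outside the set summed to 152 to 223 CPM for Dorset. The sums were 231 to 311 CPM for Han BB and 357 to 468 CPM for Han ++, with no overlap. Of 11 tested, 10 were higher in Han BB and 11 in Han ++ than in Dorset. Their medians were 0.69 and 1.33 (0.68 and 1.72 without W4 and D6). Han BB over Han ++ gave a median of -0.70, and of -0.96 without W4 and D6. TPPP3 alone held 108 of the 204 CPM summed in D4 and 195 of the 468 CPM in W6. FOXJ1, the master regulator of motile cilia, had 2.92, 2.61 and 3.13 CPM in the Dorset ovaries. Its Han BB values were 5.84, 3.36 and 2.88 CPM, and its Han ++ values were 11.2, 8.32 and 8.57 CPM. Its level in W4 was the lowest of the Han BB libraries, in contrast to RSPH1 and RSPH4A. MCIDAS, which drives multiciliated cell fate, had 1.41 ± 0.97 and 2.79 ± 0.99. Its counts were low, at 13, 10 and 2 reads in D4, D5 and D6 and 135, 22 and 52 in W6, W7 and W8. SNTN, of the ciliary tip, had 0.80 ± 0.68 and 2.20 ± 0.69. For Han ++, DESeq2 called FOXJ1 (adjusted p = 0.0230) and LOC101103164 (adjusted p = 0.0495), and the fit without W4 and D6 called SPAG6 (adjusted p = 0.0350, edgeR).

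Oviduct secretory markers summed to 381 to 724 CPM for Dorset, 865 to 1130 CPM for Han BB and 794 to 1881 CPM for Han ++. Most of this was OVGP1, the oviductal glycoprotein, with 371 to 718 CPM for Dorset, 838 to 1120 CPM for Han BB and 761 to 1824 CPM for Han ++. Of the 5 tested markers, 3 were higher in Han BB and 4 in Han ++ than in Dorset, with medians of 0.92 and 1.42 (1.11 and 1.72 without W4 and D6). TFF3 had 2.66 ± 0.62 and 3.85 ± 0.64, and WFDC2 had 2.29 ± 0.57 and 3.21 ± 0.58. DESeq2 called both genes in Han BB (adjusted p = 0.0282 and 0.0402) and in Han ++, and the fit without W4 and D6 called TFF3 in Han ++. PAX8 had -0.52 ± 0.62 and 0.36 ± 0.62, and MSX1 had -0.09 ± 0.70 and -1.03 ± 0.71. Between the Han groups the list median was -0.88 (Han BB over Han ++), and -0.61 without W4 and D6. No defining marker of this list was at 0, and MUC16 was not analysed here.

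Ovarian surface epithelium markers summed to 196 to 462 CPM for Dorset, 343 to 562 CPM for Han BB and 470 to 528 CPM for Han ++. All 10 were higher in Han BB and 9 in Han ++ than in Dorset, with medians of 0.60 and 0.87 (0.85 and 1.17 without W4 and D6). UPK1B had 1.65 ± 0.48 and 1.06 ± 0.47, and KRT7 was called in Han ++ without W4 and D6 at 2.13 (adjusted p = 0.0423, edgeR). Surface markers had a median of -0.17 for Han BB over Han ++, and of -0.48 without W4 and D6. The part of these cell types in the levels of the 9 genes was not tested.

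**Figure D4:**
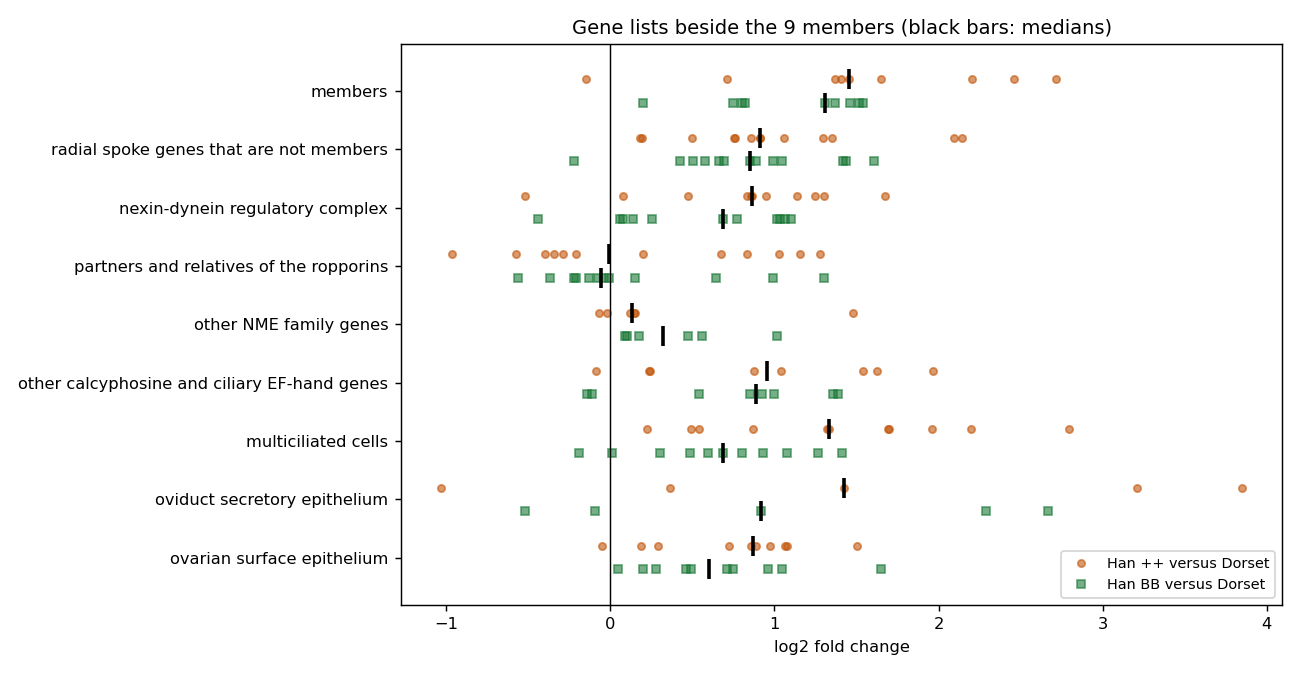
Log2 fold changes over Dorset of the 9 genes (first line) and of the genes of 8 lists, as circles for Han ++ and squares for Han BB, with black bars at the medians. The list of ropporin partners has medians near 0 (-0.06 and -0.01), and the set has 1.31 for Han BB and 1.45 for Han ++.

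The remaining cell type lists had medians over Dorset between -0.72 and 0.61. Median log2 fold changes over Dorset in Han BB and Han ++ were -0.47 and -0.02 for granulosa cells, -0.56 and -0.17 for theca cells, 0.15 and 0.61 for luteal cells, and 0.17 and -0.72 for oocytes. They were 0.43 and 0.28 for leukocytes, -0.53 and -0.47 for smooth muscle, and 0.14 and -0.18 for endothelium. Without W4 and D6 the medians over Dorset ran from -0.54 (oocytes, Han ++) to 0.56 (leukocytes, Han BB). For Han BB over Han ++ the medians were 1.02 for oocytes, -0.63 for granulosa cells, -0.60 for theca cells and -0.16 for luteal cells. Leukocytes were at 0.16, smooth muscle at -0.14 and endothelium at 0.31. Without W4 and D6 these were 1.05, -0.42, -0.24, -0.03, 0.01, -0.26 and 0.27 in the same order of lists. FOXL2 and FIGLA were not analysed here.

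Some of the 9 genes overlap others in the reference table, and the strand used in counting is not given in the sources used here. LRRC23 overlaps SPSB2, RSPH1 overlaps SLC37A1, RSPH9 overlaps MRPS18A and LOC105603710, and LOC101116109 overlaps the pseudogene LOC114110967. Reads of such pairs could not be told apart. In the Han ++ vs. Dorset comparison SPSB2 had a log2 fold change of -0.39 ± 0.54, SLC37A1 of 0.58 ± 0.48 and MRPS18A of 0.23 ± 0.53 (SE). MRPS18A was low in D6 (6.09 CPM) and W4 (6.22 CPM) and at 16.6 to 26.5 CPM in the other libraries. Whether reads of MRPS18A were counted for RSPH9 was not tested. ROPN1L, CAPSL, RSPH3, RSPH4A and NME5 overlap no gene in that table.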

How the data were processed

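RNA-Seq libraries of 9 ovaries were analysed, 1 per ewe. The authors aligned the reads with TopHat to Oar_v3.1 and deposited raw counts of the uniquely mapped reads. For the tool versions, the counting program and its strand setting nothing was given in the sources used, and the labels and methods name different library kits. Groups came from the breed and genotype labels, joined to the counts by column name, which the counts could not check. Gene names and overlaps came from the RefSeq table of ARS-UI_Ramb_v3.0, another build, so no coordinates were used.

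Counts were fitted for all 9 libraries in R 4.3.3 with edgeR 4.0.16 (TMM factors, filterByExpr, quasi-likelihood F-test, Benjamini-Hochberg adjustment over 16871 genes). A call needed an adjusted p below 0.05 together with a fold of over 1.5 or under 0.667. Log2 CPM used a prior count of 0.5. The SE given with edgeR values was derived, as the absolute log2 fold change divided by the square root of the F statistic. The alternatives used DESeq2 1.42.0, limma 3.58.1, other filters, other factors and fewer libraries. Totals ranged from 10803913 to 20992535 counts, and 3 animals per group limit the precision. PCR reads are not independent molecules.

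The genes, lists and tests were chosen with earlier results of these data known. Named were all 9 genes, the up to 4 genes of each list with the largest changes over Dorset (not all are printed) and the 5 genes most like the set. Plots were made in Python 3.11.15 with matplotlib 3.10.9.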

Additional observations from a re-analysis of the deposited data

How the results depend on the processing

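In the Han BB vs. Dorset comparison, edgeR called 0 genes, against 38 with DESeq2, 2 without the filter on low counts, 2 without W4 and D6, 1 when the split of W4 and D6 was fitted as a term, and 0 to 1 when single libraries were left out. Of the 9 genes, DESeq2 called 1, ROPN1L (adjusted p = 0.00738). Their median of 1.31 ran from 0.52 to 1.72 when single libraries were left out. In the Han BB vs. Han ++ comparison 2 genes were called by DESeq2 and 2 by limma voom (with sample weights). In the Han ++ vs. Dorset comparison the 1 called gene became 65 with DESeq2, 0 with limma voom, 11 without the filter, 0 in a fit of the compared groups only, 22 without W4 and D6, 78 with the split term, and 0 to 5 when single libraries were left out. Of the 9 genes, which were picked on this contrast so that their calls support nothing, 3, 0, 2, 0, 4 and 5 were called in the same settings, and 0 to 2 when single libraries were left out. Their median went from 1.45 to 2.13 with limma voom, 2.48 without W4 and D6 and 2.54 with the split term, and ran from 1.10 to 2.48 when single libraries were left out.

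The sign of RSPH1 turned in Han BB vs. Dorset with limma voom (-0.14), and in Han BB vs. Han ++ with limma voom (-1.33), without W4 and D6 (-1.63) and with the split term (-1.47). RSPH4A turned in Han BB vs. Han ++ in the same settings (-0.96, -1.12 and -1.14), and RSPH3 in Han ++ vs. Dorset without W4 and D6 (0.16) and with the split term (0.10). When single libraries were left out, the Han BB vs. Dorset values ran from -0.94 (without W4) to 1.96 (without D6) for RSPH1 and from -0.015 (without D4) to 0.52 for RSPH3. The Han BB vs. Han ++ values ran from -1.11 to 0.16 for CAPSL, -1.63 to 0.54 for RSPH1 and -1.12 to 0.48 for RSPH4A, each lowest without W4. RSPH3 ran from -0.37 to 0.16 in Han ++ vs. Dorset. The cause was not tested. ROPN1L, LOC101116109, LRRC23, RSPH9 and NME5 kept their direction in every setting and comparison. Of the single-gene values under an alternative, 445 kept direction and side of the threshold, 19 reversed, 12 passed it and 10 no longer did.

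The order of groups, the correlations and the lists without W4 and D6, and the lists with DESeq2 and limma voom, were added after seeing the data. Motif searches in promoters were not run. No paired analysis was possible because the labels give no replicate numbers, and those used here only name different animals in accession order. With 3 animals per group, and single libraries deciding calls, the spread between animals limits what these counts can show.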

Other observations

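Beside ROPN1L, LOC101116109, LRRC23 and RSPH9, the 34 genes ordered Dorset, Han BB, Han ++ without overlap held other ciliary genes, named here after their values were seen. UBXN10, which takes part in ciliary assembly, was at most 3.80 CPM in Dorset, between 5.49 and 12.4 CPM in Han BB and at least 13.5 CPM in Han ++. ZMYND10, a factor for dynein arm assembly, was at most 9.997 CPM in Dorset, between 10.5 and 14.7 CPM in Han BB and at least 16.2 CPM in Han ++. WDR38 had at most 1.49 CPM, between 2.45 and 5.08 CPM, and at least 7.55 CPM. TFF3, a secreted trefoil peptide of mucous epithelia, had at most 0.949 CPM, between 1.14 and 8.06 CPM, and at least 9.58 CPM. RAB25, a small GTPase of epithelial cells, had at most 3.21 CPM, between 3.28 and 4.89 CPM, and at least 5.90 CPM. These are descriptions, with no test of the order.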
